A study of Mus musculus with 6 samples.

Results

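The 36 genes described here act in the DNA damage response: in homologous recombination, the Fanconi anemia pathway, checkpoint signaling, mismatch repair, end joining, single-strand break repair and damage tolerance. They were chosen by symbol from named pathways. All 36 were present among the 13007 genes of the deposited count table, and all 36 passed the filter on low counts. Poly-A RNA was sequenced from 3 AEL and 3 NC samples of C57BL/6 mouse bone marrow, with the same number of cells sorted per sample. AEL (acute erythroid leukemia) samples were labelled Trp53-/- and ERG-expressing. They were GFP-positive leukemic cells sorted after transduction with ERG, an ETS family transcription factor, together with GFP. NC samples were labelled WT and were normal marrow cells, described as erythroid precursors, sorted after staining for CD71 and Ter119. The tissue label of all 6 samples names transformation by SETBP1 and ASXL1 mutations, which conflicts with the WT label of NC. The groups thus differ in genotype, ERG transduction, transformation and sort at once, and these cannot be told apart. The sample titles call them bio reps, without saying whether these are separate animals or separate cultures. The labels state neither age, clonality nor the number of animals. The p-values thus measure only the spread between these samples, which may not be the spread between animals.

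Library totals were 8171676 to 9945330 counts. Erg, the transduced gene, had 790, 556 and 684 normalized CPM (counts scaled to a common library size with TMM factors) in AEL, against 4.38, 7.56 and 8.52 in NC. Trp53 had 1171, 1092 and 976 CPM in AEL libraries, against 177, 175 and 162 in NC libraries; it was higher in the libraries labelled Trp53-/-, and a count per gene does not show which exons were read. The replicates were less alike in AEL (biological coefficient of variation 44.3%) than in NC (9.02%). The summed level of 8 erythroid markers was 2760 to 8228 CPM in AEL and 36989 to 49695 in NC, and all 8 fell. NC also held markers of other marrow cells: 8 neutrophil markers summed to 16.8 to 1013 CPM in AEL and 7346 to 8531 in NC, 8 macrophage markers to 3.04 to 39.2 CPM in AEL and 2954 to 3472 CPM in NC, and 10 B cell markers to 1.80 to 2.74 CPM in AEL and 230 to 279 CPM in NC. All of these markers fell, as did 3 of 3 measured T and NK cell markers and 3 of 5 mast cell, basophil and eosinophil markers, while of 3 measured megakaryocyte markers 1 rose and 1 fell. Genes of dividing cells moved with the groups as well. Of 27 S phase genes 24 fell and 1 rose (median log2 fold change -1.20), and of 20 mitosis genes 15 fell (median -0.89). The part of these differences in the repair gene results was not tested, and in bulk samples fewer cells of a type and less RNA per cell cannot be told apart.

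As background, double-strand breaks are repaired either by homologous recombination, which copies a sister chromatid and works mainly in S and G2 phase, or by end joining, which ligates the ends directly. The Fanconi anemia proteins unhook crosslinks between the strands and hand the break to recombination, and germline loss of them causes bone marrow failure. The kinases ATM and ATR sense breaks and stalled forks and signal through CHK2 and CHK1 to the cell cycle and to p53, the protein encoded by Trp53. Many of these genes are transcribed more in dividing cells, through E2F factors.

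Of the 36 genes, 8 were higher in AEL, 12 were lower and 16 were not called (edgeR's quasi-likelihood test, adjusted p under 0.05). Their shares, 22.2% higher and 33.3% lower, lay near the background, in which 23.9% of all 12427 genes tested were higher and 29.0% were lower. All 3 AEL libraries lay above all 3 NC libraries for 10 of the 36 genes and below them for 18, against a background of 29.9% and 36.1% of genes. The median log2 fold change of the 36 genes was -0.26, against -0.05 for all genes tested. By pathway, homologous recombination had 6 of 10 genes lower and 1 higher, checkpoint signaling had 3 of 8 higher and 2 lower, the Fanconi anemia genes 2 of 9 higher and 2 lower, and end joining 2 of 4 higher and none lower. With library totals alone as the scaling, the median of all genes moved to 0.14, the higher share of all called genes was 55.2% in place of 45.2%, and 10 of the 36 genes were higher and 10 lower.

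**Figure D1:**
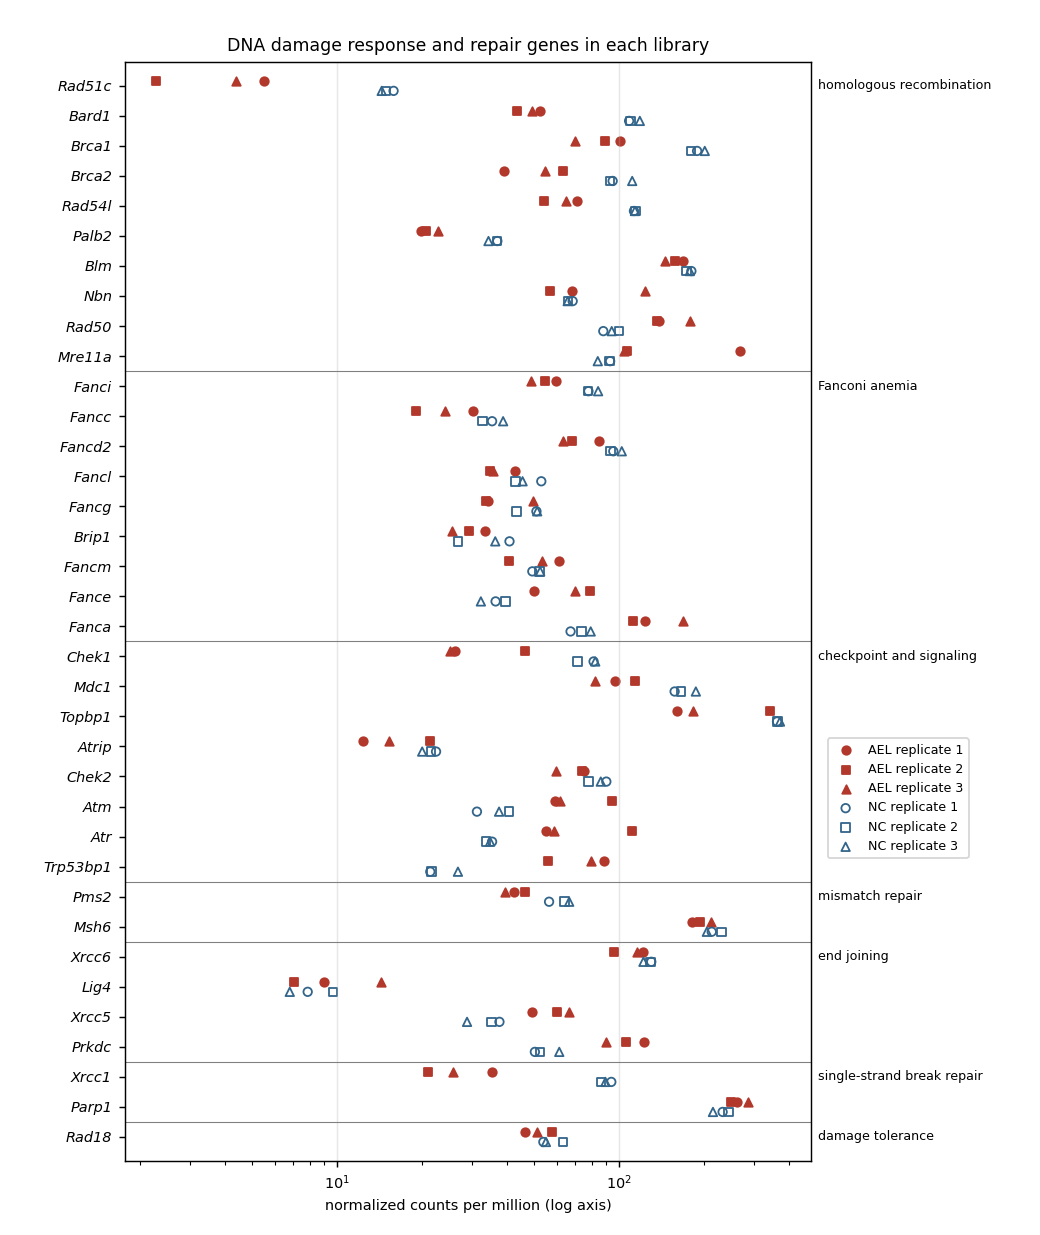
Normalized CPM of the 36 repair genes in each library, on a log axis, ordered by pathway, with the 3 AEL and the 3 NC libraries as separate points. The AEL points of Trp53bp1 (56.0 to 88.8) lie above its NC points (21.4 to 26.8), and those of Xrcc1 (21.1 to 35.6) lie below its NC points (86.2 to 93.9).

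Brca1, Bard1, Palb2 and Brca2 were lower in AEL. Brca1 (chr11:101488761-101551955, RefSeq GRCm38.p6), the ubiquitin ligase that directs breaks to recombination, had 101, 89.2 and 69.8 CPM in AEL libraries, against 189, 180 and 201 in NC libraries. Bard1 (chr1:71027535-71103141), its obligate partner, had 52.3, 43.5 and 49.2 CPM in AEL, against 109, 110 and 118 in NC. Both were lower in every AEL library than in every NC library: the log2 fold change was -1.14 (SE 0.15, edgeR adjusted p = 0.00152) for Brca1 and -1.22 (SE 0.12, edgeR adjusted p = 0.00055) for Bard1. The pair kept its ratio within the spread between libraries, at 1.80 ± 0.33 counts of Brca1 per count of Bard1 in AEL and 1.69 ± 0.05 in NC (SD, n = 3 each).

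Palb2, which bridges BRCA1 to BRCA2, had 19.9, 20.7 and 22.9 CPM in AEL, against 37.0, 36.9 and 34.4 in NC (log2 fold change -0.77, SE 0.15, edgeR adjusted p = 0.00602). Brca2, a mediator of strand exchange, had 38.9, 63.0 and 54.6 CPM in AEL, against 94.9, 92.7 and 111 in NC (log2 fold change -0.93, SE 0.20, edgeR adjusted p = 0.00761). Neither gene overlapped between the groups. Rad51c, which acts in strand exchange, had the largest fall of the 36 genes, with 5.51, 2.28 and 4.39 CPM in AEL and 15.9, 14.9 and 14.4 in NC (log2 fold change -1.89, SE 0.36, edgeR adjusted p = 0.00538); it rests on 49, 21 and 48 counts in AEL and 123, 126 and 125 counts in NC. Rad54l, a motor protein of strand exchange, had 71.0, 54.3 and 64.8 CPM in AEL, against 113, 114 and 114 in NC (log2 fold change -0.84, SE 0.13, edgeR adjusted p = 0.00239). Its exons share 15.4% of their bases with Lrrc41 on the opposite strand, and the sources used here do not say whether the counting used strand.

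Of the MRE11 complex, which binds and trims broken ends, 1 gene rose and 2 were not called. Rad50, its ATPase, had 139, 136 and 179 CPM in AEL, against 87.9, 100 and 94.2 in NC, and rose (log2 fold change 0.69, SE 0.14, edgeR adjusted p = 0.00695). Mre11a, its nuclease, had 268, 107 and 104 CPM in AEL, against 93, 92.6 and 84.1 in NC. AEL replicate 1 stood apart, and the difference did not pass (log2 fold change 0.83, SE 0.37, edgeR adjusted p = 0.103). Nbn, which recruits ATM, had 68.2, 56.8 and 124 CPM in AEL, against 68.5, 65.8 and 65.7 in NC: only AEL replicate 3 was high, and the groups overlapped (edgeR adjusted p = 0.384). Blm, a helicase that dissolves recombination intermediates, had 168, 158 and 146 CPM in AEL and 181, 174 and 178 in NC (edgeR adjusted p = 0.192).

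Among the Fanconi anemia genes, 2 of the core complex rose. Fanca, a core complex subunit, had 124, 112 and 169 CPM in AEL, against 67.3, 73.6 and 79.3 in NC (log2 fold change 0.88, SE 0.18, edgeR adjusted p = 0.00653). Fance, the subunit that contacts FANCD2, had 50.1, 78.6 and 69.7 CPM in AEL, against 36.5, 39.6 and 32.4 in NC (log2 fold change 0.87, SE 0.20, edgeR adjusted p = 0.0100). Both rose with no overlap. The call of Fance ended without NC replicate 1 (adjusted p = 0.0543, edgeR) or 3 (adjusted p = 0.0594, edgeR). Exons of Fanca share 10.5% of their bases with Zfp276 on the opposite strand.

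The pair that the core complex ubiquitinates fell. Fanci had 59.8, 54.5 and 48.7 CPM in AEL, against 77.9, 77.6 and 84.3 in NC (log2 fold change -0.56, SE 0.13, edgeR adjusted p = 0.0103), and Polg on the opposite strand covers 16.0% of its exon bases. Fancd2 had 84.6, 68.1 and 63.5 CPM in AEL, against 95.4, 93.3 and 102 in NC (log2 fold change -0.43, SE 0.14, edgeR adjusted p = 0.0402). The groups did not overlap for either gene, but the call of Fancd2 ended under 7 of 18 alternatives. Counts of Fanci per count of Fancd2 were 0.706, 0.799 and 0.767 in AEL and 0.816, 0.832 and 0.824 in NC.

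The other 5 Fanconi anemia genes were not called, although Fancc was without AEL replicate 1 (log2 fold change -0.63, edgeR adjusted p = 0.0367) and Fancg without AEL replicate 3 (-0.46, edgeR adjusted p = 0.0459). Fancc had 30.3, 19.0 and 24.1 CPM in AEL and 35.5, 32.8 and 38.8 in NC (edgeR adjusted p = 0.0653), and Fancl, the ubiquitin ligase of the pathway, had 42.7, 34.7 and 35.8 CPM in AEL and 53.0, 42.9 and 45.5 in NC (edgeR adjusted p = 0.127). The AEL libraries were below all NC libraries for both. Vrk2 on the opposite strand covers 13.7% of the exon bases of Fancl. Fancg, Fancm and Brip1, a core subunit, a DNA translocase and a helicase that binds BRCA1, overlapped between the groups. Fancg had 34.3, 33.9 and 49.7 CPM in AEL and 50.9, 43.4 and 51.2 in NC, and Brip1 had 33.5, 29.3 and 25.5 CPM in AEL and 40.9, 26.8 and 36.4 in NC. Fancm was the closest to no difference, at 61.2, 40.7 and 53.4 CPM in AEL and 49.3, 52.2 and 52.5 in NC (log2 fold change 0.01, SE 0.17).

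In checkpoint signaling the apical kinases were higher and the kinase below ATR was lower. Atm (chr9:53437122-53536828) had 59.1, 94.2 and 61.6 CPM in AEL, against 31.3, 40.8 and 37.5 in NC (log2 fold change 0.97, SE 0.22, edgeR adjusted p = 0.0103). Atr (chr9:95857597-95953217) had 55.1, 112 and 58.7 CPM in AEL, against 35.5, 33.8 and 34.9 in NC (log2 fold change 1.11, SE 0.28, edgeR adjusted p = 0.0156). For both kinases AEL replicate 2 was the highest library and no AEL library overlapped NC. The call of Atr ended without any 1 NC replicate (adjusted p = 0.0700 to 0.0745, edgeR), and that of Atm without NC replicate 1 (adjusted p = 0.0615, edgeR) or 3 (adjusted p = 0.0516, edgeR). Chek1 (chr9:36708482-36726658), the kinase that ATR activates, had 26.1, 46.2 and 25.2 CPM in AEL, against 81.2, 71.1 and 82.3 in NC (log2 fold change -1.27, SE 0.26, edgeR adjusted p = 0.00638). Within a library, Atr had 2.28 ± 0.15 counts per count of Chek1 in AEL and 0.445 ± 0.03 in NC (SD, n = 3 each).

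Atrip, the binding partner of ATR, was not called, at 12.4, 21.3 and 15.3 CPM in AEL and 22.4, 21.5 and 20.03 in NC (edgeR adjusted p = 0.230); 16.0% of its exon bases lie in Trex1 on the same strand. Topbp1, which activates ATR, had 161, 344 and 182 CPM in AEL, against 363, 364 and 372 in NC. AEL replicate 2 was near NC and the other AEL libraries were far below, and the difference did not pass (log2 fold change -0.68, SE 0.28, edgeR adjusted p = 0.0822), but without AEL replicate 2 it did (log2 fold change -1.02, edgeR adjusted p = 0.000879). Chek2, the kinase below ATM, had 75.2, 73.7 and 59.8 CPM in AEL and 90.1, 78 and 86.1 in NC (edgeR adjusted p = 0.122).

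The mediators that gather at broken chromatin moved in opposite directions. Trp53bp1 (chr2:121194835-121296354), which shields ends from resection and so favors end joining, had the largest rise of the 36 genes, with 88.8, 56.0 and 79.4 CPM in AEL and 21.4, 21.6 and 26.8 in NC (log2 fold change 1.68, SE 0.21, edgeR adjusted p = 0.00116). Exons of Tubgcp4 on the opposite strand cover 15% of its exon bases. Mdc1 (chr17:35841495-35859670), the scaffold that binds phosphorylated H2AX, had 97, 114 and 82.1 CPM in AEL, against 157, 166 and 187 in NC (log2 fold change -0.80, SE 0.15, edgeR adjusted p = 0.00477). Counts of Trp53bp1 per count of Brca1, whose products act against each other on end resection, were 0.882, 0.628 and 1.14 in AEL and 0.113, 0.120 and 0.133 in NC.

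**Figure D2:**
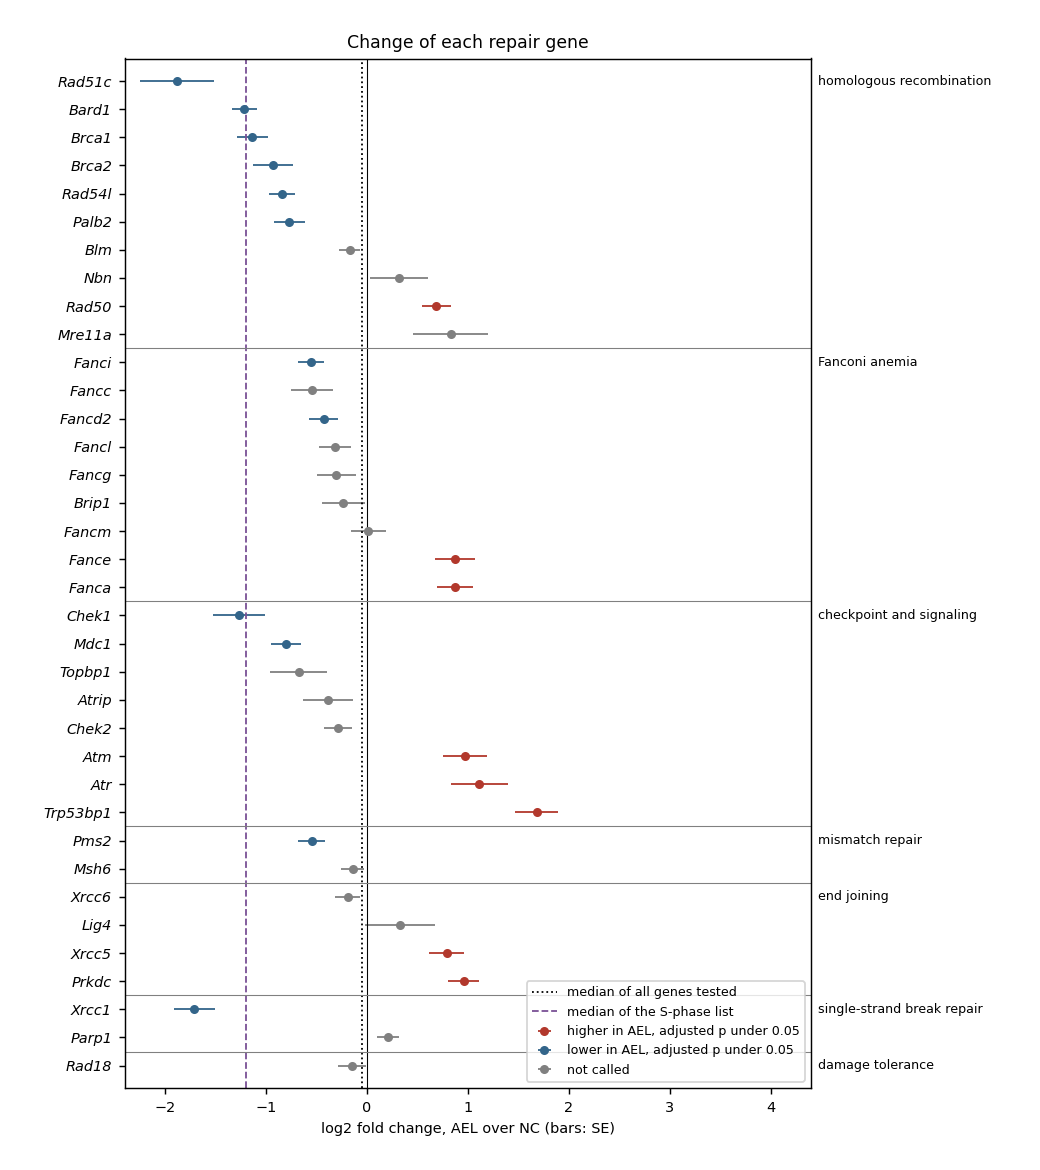
Log2 fold change, AEL over NC, of each of the 36 genes with its SE, colored by call. The points run from Rad51c at -1.89 to Trp53bp1 at 1.68, and 16 genes were not called.

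Promoters from RefSeq (GRCm38.p6, 250 bases before to 50 bases after a start) were found for 32 of the 36 genes, all but Rad50, Nbn, Fancd2 and Prkdc. Shown 5′ to 3′ on the strand of the gene are 3 genes that fell and whose promoter holds an E2F word, in capitals, followed by 2 genes that rose and whose promoter holds none. The positions are chr1:71102923-71103222 (minus strand) for Bard1, chr5:150522371-150522670 (plus) for Brca2, chr17:35841248-35841547 (plus) for Mdc1, chr2:121271358-121271657 (minus, at a start inside the gene's RefSeq span) for Trp53bp1 and chr9:95857347-95857646 (plus) for Atr.
Bard1: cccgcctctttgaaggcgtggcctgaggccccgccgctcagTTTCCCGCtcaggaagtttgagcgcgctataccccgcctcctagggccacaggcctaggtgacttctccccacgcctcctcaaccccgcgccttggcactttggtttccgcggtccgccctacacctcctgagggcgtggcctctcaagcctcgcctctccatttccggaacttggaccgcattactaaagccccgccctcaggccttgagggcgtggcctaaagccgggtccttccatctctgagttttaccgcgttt
Brca2: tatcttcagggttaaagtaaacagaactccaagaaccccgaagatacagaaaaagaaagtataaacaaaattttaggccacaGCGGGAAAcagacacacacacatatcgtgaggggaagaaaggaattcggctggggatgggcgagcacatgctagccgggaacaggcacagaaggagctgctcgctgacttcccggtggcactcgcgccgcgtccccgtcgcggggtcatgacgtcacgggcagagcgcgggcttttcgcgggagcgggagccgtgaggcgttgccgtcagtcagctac
Mdc1: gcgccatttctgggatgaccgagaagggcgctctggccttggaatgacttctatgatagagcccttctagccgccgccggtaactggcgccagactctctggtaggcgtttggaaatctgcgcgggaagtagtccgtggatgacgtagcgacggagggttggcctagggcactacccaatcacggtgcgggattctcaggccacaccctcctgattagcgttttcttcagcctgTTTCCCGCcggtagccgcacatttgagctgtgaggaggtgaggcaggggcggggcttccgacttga
Trp53bp1: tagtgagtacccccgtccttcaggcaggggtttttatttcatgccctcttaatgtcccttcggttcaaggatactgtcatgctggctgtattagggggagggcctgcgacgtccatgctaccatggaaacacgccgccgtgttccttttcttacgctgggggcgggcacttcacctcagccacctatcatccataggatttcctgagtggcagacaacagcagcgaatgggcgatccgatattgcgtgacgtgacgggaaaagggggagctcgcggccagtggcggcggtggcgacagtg
Atr: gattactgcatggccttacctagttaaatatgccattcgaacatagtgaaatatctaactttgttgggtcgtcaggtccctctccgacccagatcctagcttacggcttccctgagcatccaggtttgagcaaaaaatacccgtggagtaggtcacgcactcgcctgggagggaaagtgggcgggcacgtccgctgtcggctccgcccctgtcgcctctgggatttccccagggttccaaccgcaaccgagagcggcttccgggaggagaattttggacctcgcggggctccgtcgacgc
The E2F words searched, on both strands, were TTTCCCGC, TTTGGCGC, TTTCGCGC and TTTGCCGC. They were in the promoters of 4 of 11 genes that fell (also Rad51c), of none of 6 that rose and of 5 of 15 that were not called, that is 28.1% of the 32, against 4.74% of all tested genes with a promoter and 47.6% of 21 genes of the S phase list. Across all tested genes the share was 3.799% of those higher and 4.90% of those lower in AEL. The ETS word CCGGAAGT was in 2 of the 32 promoters, those of Palb2 and Lig4, or 6.25%, against 9.42% of all tested genes. A match is a description of these letters and not a binding site. Exact words in a fixed window can miss related words and words cut by its edge. The Chek1 promoter, counted without an E2F word, ends in gcgggaa.

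In mismatch repair, Pms2, the endonuclease subunit, had 42.3, 46.3 and 39.5 CPM in AEL, against 56.5, 64.1 and 66.6 in NC (log2 fold change -0.55, SE 0.13, edgeR adjusted p = 0.0138). It fell, but the call ended with library totals alone (adjusted p = 0.0542, edgeR) and without NC replicate 2 (adjusted p = 0.0562, edgeR) or 3 (adjusted p = 0.0551, edgeR). Msh6, which recognizes mismatches, overlapped between the groups at 181, 193 and 213 CPM in AEL and 213, 231 and 205 in NC.

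The 4 end joining genes had a median log2 fold change of 0.56, against -0.12 over 9 other end joining genes. Prkdc, the catalytic subunit of DNA-PK, had 123, 105 and 90.0 CPM in AEL, against 50.3, 52.4 and 61.4 in NC (log2 fold change 0.96, SE 0.16, edgeR adjusted p = 0.00294). Xrcc5, which encodes KU80, had 49.1, 60.4 and 66.3 CPM in AEL, against 37.6, 35.3 and 28.9 in NC (log2 fold change 0.79, SE 0.18, edgeR adjusted p = 0.00954); the call ended without NC replicate 3 (adjusted p = 0.0529, edgeR). Both rose with no overlap. Xrcc6, which encodes the KU70 subunit of the same dimer, had 122, 95.9 and 116 CPM in AEL and 130, 129 and 122 in NC and was not called (edgeR adjusted p = 0.235). Desi1 on the opposite strand covers 7.69% of the exon bases of Xrcc6. Counts of Xrcc5 per count of Xrcc6 were 0.403, 0.630 and 0.570 in AEL and 0.289, 0.274 and 0.237 in NC. Lig4, the ligase of the pathway, was low and overlapped, at 9, 7.05 and 14.4 CPM in AEL and 7.86, 9.69 and 6.79 in NC.

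In single-strand break repair, Xrcc1, the scaffold that holds the repair enzymes, had 35.6, 21.1 and 25.8 CPM in AEL, against 93.9, 86.2 and 89.5 in NC (log2 fold change -1.71, SE 0.21, edgeR adjusted p = 0.00100). Its stable partner ligase, Lig3, moved the other way, with 112, 95.2 and 128 CPM in AEL and 23.1, 20.6 and 25.9 in NC (log2 fold change 2.27, SE 0.17, edgeR adjusted p = 0.000216). Counts of Lig3 per count of Xrcc1 were 3.16, 4.52 and 4.95 in AEL and 0.246, 0.238 and 0.290 in NC, a ratio 16.3 times as high in AEL. Parp1, which senses the nick, had 262, 249 and 288 CPM in AEL and 233, 244 and 215 in NC; it was above NC in every AEL library but not called (log2 fold change 0.21, SE 0.11, edgeR adjusted p = 0.154). Levels per kilobase were taken over all bases in any GENCODE exon of a gene. On this measure the highest levels of the 36 genes were those of Parp1 (50.3 CPM per kb in AEL, 43.6 in NC) and Msh6 (45.02 in AEL, 49.8 in NC). The lowest was that of Rad51c in AEL (0.926, against 3.43 in NC) and that of Atr in NC (3.18 in AEL, against 1.47 in NC). Such a length can exceed that of the transcripts in the cells, and for Atr it was 23629 bases. The order thus rests on the length measure. Rad18, the ubiquitin ligase of damage tolerance, overlapped, at 46.5, 57.7 and 51.0 CPM in AEL and 53.9, 63.2 and 55.0 in NC.

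**Figure D3:**
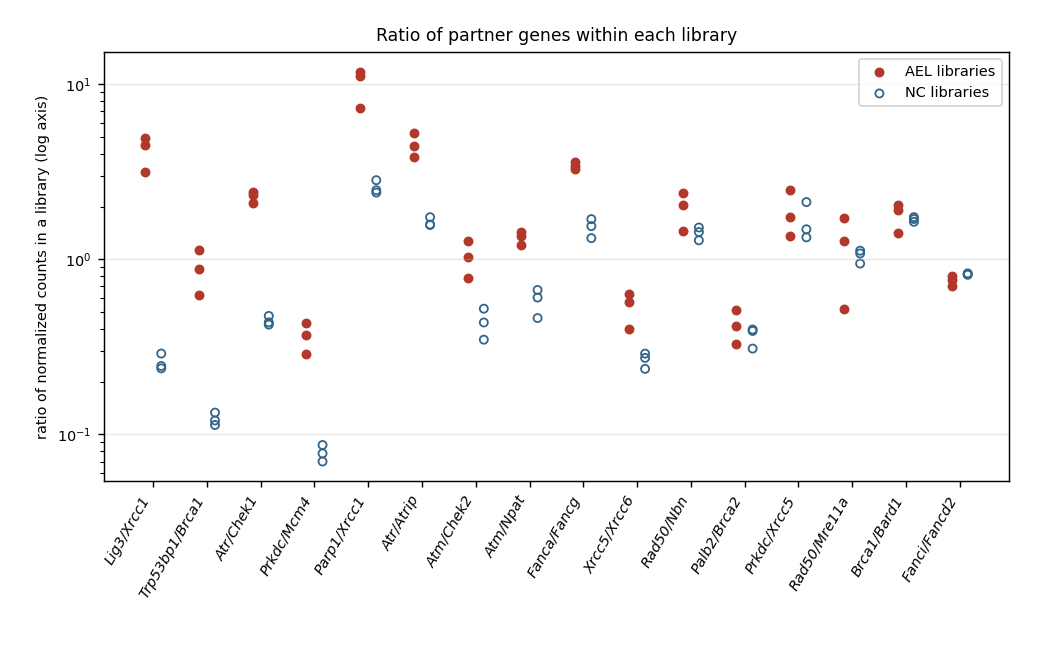
Ratio of the normalized counts of 2 partner genes within each library, on a log axis, for AEL and NC libraries. Lig3/Xrcc1 lies at 3.16 to 4.95 in AEL and 0.238 to 0.290 in NC, while Brca1/Bard1 overlaps between the groups.

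Several AEL libraries differed from each other over whole stretches of chromosome, a description made after the values were seen. For each AEL library, each gene was set against the mean of the other AEL libraries, and the median over the genes within 5 Mb of a repair gene was compared with that gene. On chromosome 9, which holds Mre11a, Chek1, Atm, Atr, Topbp1 and Atrip, the median of 503 genes was -0.43, 0.78 and -0.46 (log2) in AEL replicates 1 to 3, against -0.02 to 0.02 in NC. Mre11a was 1.34 higher (log2) in AEL replicate 1, and its 15 neighbours had a median of 1.18. Nbn, on chromosome 4, was 0.98 higher (log2) in AEL replicate 3, and its 23 neighbours had a median of 0.70. Across the 36 genes the Pearson correlation between a gene and its neighbours was 0.74, 0.76 and 0.66 in the AEL libraries, and -0.25, -0.01 and 0.07 in the NC libraries. The neighbour medians ran from -0.82 to 1.18 in the AEL libraries and only from -0.11 to 0.07 in the NC libraries. These points share libraries, and some share a chromosome, as on chromosome 9, or neighbours, as do Rad51c and Brip1. They are thus given as a description.

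Set against the NC mean, Topbp1 and Mre11a lay near the level of their neighbours, and Atr, Atm and, by less, Atrip lay above theirs. Topbp1 was at -1.18, -0.09 and -1.004 (log2) in AEL replicates 1 to 3, and its neighbours were at -0.94, -0.01 and -0.93. Atr was at 0.65, 1.66 and 0.74, and its neighbours were at -0.91, 0.05 and -0.84. Atm was at 0.68, 1.34 and 0.74, and its neighbours were at -0.80, 0.19 and -0.68. Chek1 was below its neighbours, at -1.55, -0.75 and -1.59 against -0.48, -0.05 and -0.61. Atrip was at -0.74, -0.004 and -0.46, and its neighbours were at -1.01, -0.13 and -0.97. Mre11a was at 1.57, 0.24 and 0.20, and its neighbours were at 1.39, 0.06 and 0.35. For each of these genes the neighbours were nearest the NC mean in AEL replicate 2. In AEL replicates 1 and 3 they were below it, apart from those of Mre11a, which were above.

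**Figure D4:**
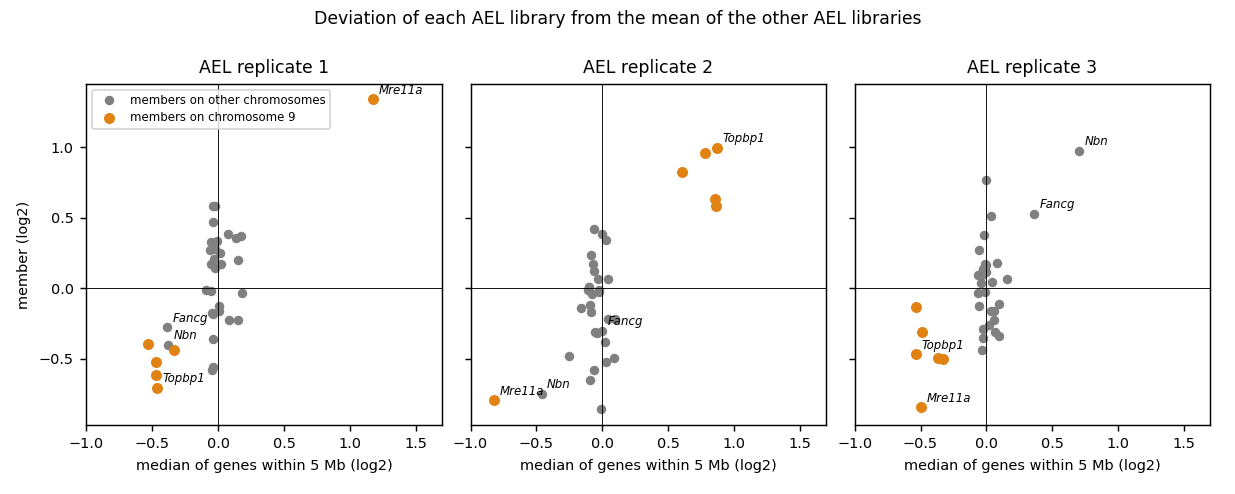
Each panel is 1 AEL library, with each of the 36 genes placed by the median of the genes within 5 Mb (x axis, log2) and by its own value (y axis, log2), both against the mean of the other AEL libraries. Genes on chromosome 9 lie at the upper right in AEL replicate 2, apart from Mre11a, which lies at the upper right in AEL replicate 1.

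Genes that start head to head with a repair gene did not always share its direction. Mcm4, a subunit of the replicative helicase that starts 466 bases from Prkdc (GENCODE), fell (log2 fold change -1.24, SE 0.14, edgeR adjusted p = 0.000848), so that Prkdc had 0.369, 0.431 and 0.289 counts per count of Mcm4 in AEL and 0.0700, 0.0778 and 0.0870 in NC. Npat, which starts 376 bases from Atm (RefSeq), was not called (log2 fold change -0.22). Ankrd49, 81 bases from Mre11a, had 104, 50.02 and 61.3 CPM in AEL and 38.7, 42.4 and 35.8 in NC, again with AEL replicate 1 highest, and rose (log2 fold change 0.88, edgeR adjusted p = 0.0337). Nbr1, 152 bases from Brca1, fell (log2 fold change -0.60, edgeR adjusted p = 0.0252). Pomgnt1, 150 bases from Rad54l in GENCODE, and Aimp2, 162 bases from Pms2, rose (1.53 and 0.41), whereas Rad54l and Pms2 fell. RefSeq does not place Pomgnt1 beside Rad54l: Pomgnt1 (plus strand) starts at chr4:116150498 and Rad54l (minus strand) at chr4:116123700. The RefSeq gene 150 bases from Rad54l is 2510003B16Rik, which is absent from the count table. The calls of Ankrd49, Nbr1 and Aimp2 ended without any 1 NC replicate. 1300017J02Rik, 133 bases from Topbp1 in GENCODE, fell (log2 fold change -3.71, edgeR adjusted p = 0.0183). It had 7.09, 22.1 and 0.366 CPM in AEL and 129, 123 and 133 in NC. That call too ended without any 1 NC replicate. RefSeq does not place this gene beside Topbp1 either: 1300017J02Rik (minus strand) starts at chr9:103288297 and Topbp1 (plus strand) at chr9:103305167. Gm35824, 2 bases from Rad18, was at 1.58, 1.09 and 1.28 CPM in AEL and 0, 0.236 and 0.345 in NC. Abhd13 beside Lig4, Dctn5 beside Palb2, Desi1 beside Xrcc6, Hscb beside Chek2 and Emc3 beside Fancd2 were not called.

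Of 120 other repair genes tested, 25 were higher and 36 lower (20.8% and 30.0%), near the background of 23.9% and 29.0%, with a median of -0.12. Of 19 other checkpoint genes 11 fell and 2 rose, and of 26 other homologous recombination genes 10 fell and 2 rose. Rmi2, a subunit of the BLM complex, fell the most among the recombination genes, to 6.86, 6.62 and 5.76 CPM in AEL, against 23.9, 27.5 and 29.0 in NC (log2 fold change -2.06). Of 16 nucleotide excision repair genes 7 rose and 1 fell (median 0.45). Ercc6, which couples repair to transcription, had the largest rise among them (log2 fold change 1.61). It had 97.9, 43.9 and 54.4 CPM in AEL, against 19.2, 20.7 and 24.4 in NC. On its chromosome, 14, the median gene was at 0.66, -0.33 and -0.41 (log2) in AEL replicates 1 to 3, each against the other AEL libraries. Of 11 other Fanconi anemia genes 4 rose and 1 fell; these included Faap100 (0.97) and Ube2t, the conjugating enzyme of the pathway (-0.71). Pcna, the replication clamp counted here with mismatch repair, fell to 257, 249 and 222 CPM in AEL, against 1009, 900 and 917 in NC (log2 fold change -1.96).

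In the other pathways the calls were mixed: 2 rose and 1 fell of 6 other mismatch repair genes, 2 rose and 2 fell of 9 other end joining genes, with Lig3 counted among the rises, 2 rose and 7 fell of 19 genes of single-strand break and base excision repair, and 4 rose and 3 fell of 14 damage tolerance genes. Mlh3, a MutL family protein, rose (log2 fold change 1.24), and Nhej1, the XLF factor of end joining, fell (-1.22). Smug1, a uracil glycosylase, rose (1.12), and Parp3, a PARP family enzyme, fell (-2.60), at 0.225, 1.41 and 0.549 CPM in AEL and 4.13, 5.08 and 4.26 in NC. At these low levels the value of Parp3 ran from -3.37 to -0.73 over 16 alternatives, and its call ended without NC replicate 2 (adjusted p = 0.05002, edgeR). The calls of Nhej1, Smug1 and Ube2t ended without NC replicate 1 or 2 (adjusted p = 0.0588 to 0.0737, edgeR). Hltf, a fork remodeler, rose (1.36), and Ube2b, the conjugating enzyme that works with RAD18, fell (-0.95). In homologous recombination Recql, a helicase, had the largest rise (1.18). In checkpoint signaling Rad17, the clamp loader, rose (0.89) and Mapkapk2, a kinase below p38, fell (-2.09); the call of Mapkapk2, at 45.7, 18.4 and 3.75 CPM in AEL and 88.1, 97.1 and 103 in NC, ended under 7 alternatives.

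**Figure D5:**
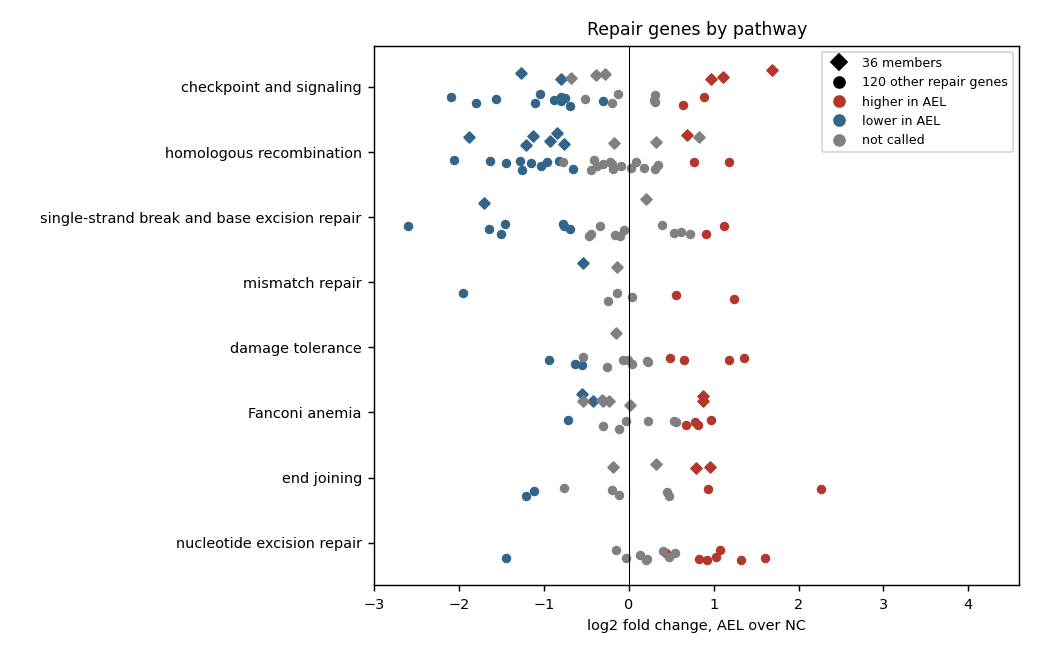
Log2 fold change, AEL over NC, of the 36 genes (diamonds) and the 120 other repair genes (circles) by pathway, colored by call. Nucleotide excision repair has 7 genes higher and 1 lower, and the other homologous recombination genes have 2 higher and 10 lower.

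Exon length, taken over all GENCODE exon bases of a gene as above, moved with the result over the whole table. From the shortest to the longest length quartile of genes the median log2 fold change was -0.37, -0.11, 0.01 and 0.24, and 18 of the 36 repair genes were in the longest length quartile. In that length quartile 35.9% of all genes were higher and 21.4% lower, and of the 18 repair genes 5 were higher and 7 lower, with a median of -0.41. The part of length in the calls was not tested.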

How the data were processed

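Poly-A RNA of 3 AEL and 3 NC samples was measured as counts per gene. The authors deposited 1 table of whole-number counts, although its name says CPM; the submitters' processing notes list the build mm10 and edgeR 3.32.1 without saying what each was used for, and the sources used here name no aligner, counter or strand setting. Every gene exceeded 1 CPM in at least 2 libraries of the deposited table. Groups came from the sample titles. Genes with at least 1 CPM in 3 libraries (12427 of 13007) were tested with edgeR 4.0.16 (R 4.3.3, TMM scaling, quasi-likelihood test, group as the only term), with Benjamini-Hochberg adjustment over all of them and a threshold of 0.05. CPM values are scaled by TMM. Alternatives used DESeq2 1.42.0, limma 3.58.1 on log2(CPM + 1, 0.5 or 5), other scalings and filters, a robust fit, a replicate block, leaving out each replicate and leaving out chromosome 9. No pair of libraries agreed within sampling noise.

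The 36 genes and the other lists were chosen with earlier results of these data known. The text names all 36, the called gene with the largest rise or fall in other repair classes, genes starting head to head within 1000 bases, and Trp53 and Erg; 1 gene that this rule names is not reported here. The neighbourhood, exon length and partner ratio descriptions, and the head-to-head pairs taken from GENCODE, were chosen after the values were seen. Coordinates are those of RefSeq GRCm38.p6, in which 12254 rows had a matching symbol and 480 a matching synonym, leaving 273 unmatched. 20 row names of the table had been turned into dates. Precision is limited by 3 samples per group. Same-numbered samples did not vary together, but 3 samples per group cannot show whether the numbers pair them. The labels do not say.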

Additional observations from a re-analysis of the deposited data

How the results depend on the processing

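Of the 36 genes, 14 called genes kept their call and direction under every alternative run for them: Brca1, Bard1, Palb2, Brca2, Rad51c, Rad54l, Rad50, Fanca, Fanci, Mdc1, Trp53bp1, Prkdc, Xrcc1 and Chek1. Leaving out 1 library moved the counts most: 1672 to 3253 genes were higher and 1780 to 3834 lower, 4 to 9 of the 36 genes were higher and 10 to 13 lower, and 13 to 34 other repair genes were higher and 27 to 36 lower. The low ends of the counts of genes, and of the 36 genes higher, came without 1 NC replicate. Log2 fold changes changed sign only for genes not called. With library totals alone these were Blm (0.0135), Msh6 (0.0459), Rad18 (0.0399), Emc3 (0.185) and Desi1 (0.0866). Leaving out 1 library gave a range of -0.0448 (without AEL replicate 3) to 0.612 for Nbn, -0.0561 to 0.226 for Fancm, -0.219 to 0.0091 for Msh6, -0.231 to 0.0223 for Rad18, -0.486 to 0.0137 for Npat, -0.081 to 0.160 for Emc3 and -0.170 to 0.0446 for Desi1. Fancm was also below 0 with limma (-0.00646, -0.00671 and -0.00469 with pseudocounts 1, 0.5 and 5), upper quartile scaling (-0.0233), the stricter filter of 10 CPM (-0.0113) and without chromosome 9 genes (-0.0124). With the replicate block, Fancm was at -0.0064, and 8 of the 36 genes were higher and 11 lower; same-numbered libraries correlated at 0.08, -0.02 and -0.03. Topbp1 was called by DESeq2 (adjusted p = 0.0402) and limma, and Mre11a without AEL replicate 2 (adjusted p = 0.0293, edgeR) or 3 (adjusted p = 0.0391, edgeR). Parp1 (0.39, edgeR adjusted p = 0.0276) and Mre11a (1.00, edgeR adjusted p = 0.0493) were called with library totals alone. The cause of these changes was not tested. DESeq2 gave no adjusted p for 26 genes.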
